A study of Mus musculus with 9 samples.

Results

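Gap43, Basp1, Marcks and Marcksl1 (membrane proteins of the growth cone), the stathmins Stmn1, Stmn2, Stmn3 and Stmn4, and the collapsin response mediator proteins (CRMPs) Dpysl2 and Dpysl3 were examined in Neuro2a cells treated with a xyloside. These 10 genes were chosen by symbol for the families they belong to, out of 24972 gene names in the expression table. The choice was made with earlier results of these data known. Of the members, 10 of 10 had a row and passed the filter on low values. Neuro2a is a mouse neuroblastoma line that grows neurites in culture, so every sample came from 1 line of wild-type genotype kept in DMEM with 10% fetal bovine serum and antibiotics. The control group received DMSO, the LCX group received 500 nM and the HCX group 1 mM of the xyloside 4-methylumbelliferyl-β-D-xylopyranoside, a sugar primer on which cells build glycosaminoglycan chains, with 3 samples in each group. The sample labels give 48 h of treatment for the xyloside groups and for the series, while a figure legend of the study names a longer time. The comparisons ask whether the effects of xylosides on neurites and the cytoskeleton are accompanied by changes in messenger RNA. The messages examined here are those of growth cone and microtubule regulators. The study reported larger growth cones in hippocampal neurons with LCX and not with HCX. In Neuro2a cells it reported fewer actin bundles and slower movement with LCX and not with HCX, and altered microtubule dynamics with both. Whether the 3 samples per group are separate cultures is not given by the labels. The p-values therefore weigh group differences against a spread between samples that may be technical.

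The growth cone is the motile tip of a growing neurite, where actin filaments at the edge and microtubules entering from the shaft are remodelled. GAP-43, BASP1 (CAP-23), MARCKS and MARCKSL1 are lipid-anchored proteins of the inner face of the plasma membrane, where they bind acidic phospholipids and calmodulin, are phosphorylated by protein kinase C and act on the cortical actin. Stathmins bind tubulin dimers and promote microtubule turnover until they are phosphorylated. STMN1 is cytosolic, and STMN2 (SCG10), STMN3 (SCLIP) and STMN4 (RB3) carry an additional region that attaches them to Golgi and vesicle membranes. CRMPs are cytosolic proteins that bind tubulin and transmit the semaphorin signal that collapses growth cones, and CDK5 and GSK3β phosphorylate them. DPYSL2 is also known as CRMP2 and DPYSL3 as CRMP4.

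RefSeq promoter sequences, which run from 250 bases before to 50 bases after the transcription start on GRCm38.p6, were matched for 3 of the 10 members. They are printed because Stmn3 and Basp1 are the genes against which Stmn1 and Gap43 are set below within each library, and Marcksl1 is the partner of Marcks. Gap43, Marcks, Stmn1, Stmn2, Stmn4, Dpysl2 and Dpysl3 had no matched entry. Capitals mark the GC box GGGCGG on either strand.
Stmn3, chr2:181314451-181314750, minus strand: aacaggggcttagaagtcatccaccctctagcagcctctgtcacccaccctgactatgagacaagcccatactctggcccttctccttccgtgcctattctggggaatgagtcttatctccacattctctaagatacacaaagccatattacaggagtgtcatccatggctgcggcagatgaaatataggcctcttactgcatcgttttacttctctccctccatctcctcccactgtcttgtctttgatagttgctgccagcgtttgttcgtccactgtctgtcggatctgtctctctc
Marcksl1, chr4:129513331-129513630, plus strand: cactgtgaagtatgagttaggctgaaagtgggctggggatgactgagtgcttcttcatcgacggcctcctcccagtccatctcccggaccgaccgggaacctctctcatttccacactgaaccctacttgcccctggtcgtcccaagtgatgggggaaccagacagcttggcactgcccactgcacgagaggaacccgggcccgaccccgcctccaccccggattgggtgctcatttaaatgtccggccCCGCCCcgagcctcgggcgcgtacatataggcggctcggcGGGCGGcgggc
Basp1, chr15:25413715-25414014, minus strand: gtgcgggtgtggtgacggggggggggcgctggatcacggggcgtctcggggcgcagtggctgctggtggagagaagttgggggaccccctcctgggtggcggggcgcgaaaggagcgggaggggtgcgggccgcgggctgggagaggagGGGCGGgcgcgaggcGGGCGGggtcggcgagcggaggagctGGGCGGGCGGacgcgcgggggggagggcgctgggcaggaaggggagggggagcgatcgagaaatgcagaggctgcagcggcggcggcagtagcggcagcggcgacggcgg
The promoters differed in base composition, with 49.7% G and C in Stmn3, 63.7% in Marcksl1 and 78% in Basp1, beside a median of 52.7% over 32851 mouse promoters of this length. The GC box was found 0 times in Stmn3, 2 times in Marcksl1 and 4 times in Basp1, where 1 pair of the 4 overlaps, and 35.7% of all promoters hold it. Marcksl1 also held 1 CCAAT box (CCAAT, either strand, in 37.4% of promoters). The TATA box TATAAA, present in 13.6% of promoters, and the E-boxes CACGTG (7.15%) and CAGCTG (16.3%) were found in 0 of the 3. These matches describe the letters of the windows only.

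On the GRCm38 build, Gap43 lies at chr16:42248442-42340651, Basp1 at chr15:25363277-25413764, Marcks at chr10:37133375-37138920 and Marcksl1 at chr4:129513581-129515985. The stathmins are spread over 4 chromosomes, with Stmn1 at chr4:134468320-134473843, Stmn2 at chr3:8509360-8561606, Stmn3 at chr2:181306459-181314500 and Stmn4 at chr14:66344296-66361680. Dpysl2 lies on the same chromosome as Stmn4, at chr14:66802864-66868688, and Dpysl3 is at chr18:43320984-43438286. GENCODE vM21 annotates 10 of the 10 as protein coding. Of the 31-base stretches in Stmn1 transcripts, 22.4% also occur in transcripts of another gene, 19.9% in the pseudogene Gm11223, and its value may therefore hold reads of copies. The corresponding share was 6.86% for Marcksl1 and at most 1.36% for the others. An annotated microRNA gene, Gm23634, overlaps 66 exonic bases of Stmn1.

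The values analysed are the normalized counts that the authors deposited, which are on a linear scale. Library totals ranged from 34949840 to 36667123, with 12832 to 13040 genes at 10 or more. A single read was worth about 0.935 to 1.04 of these units, and the lowest value of any member was 314, in Stmn4. The 10 members together took 0.318% to 0.329% of the total in the DMSO and LCX libraries and 0.284% to 0.289% in the HCX libraries.

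**Figure D1:**
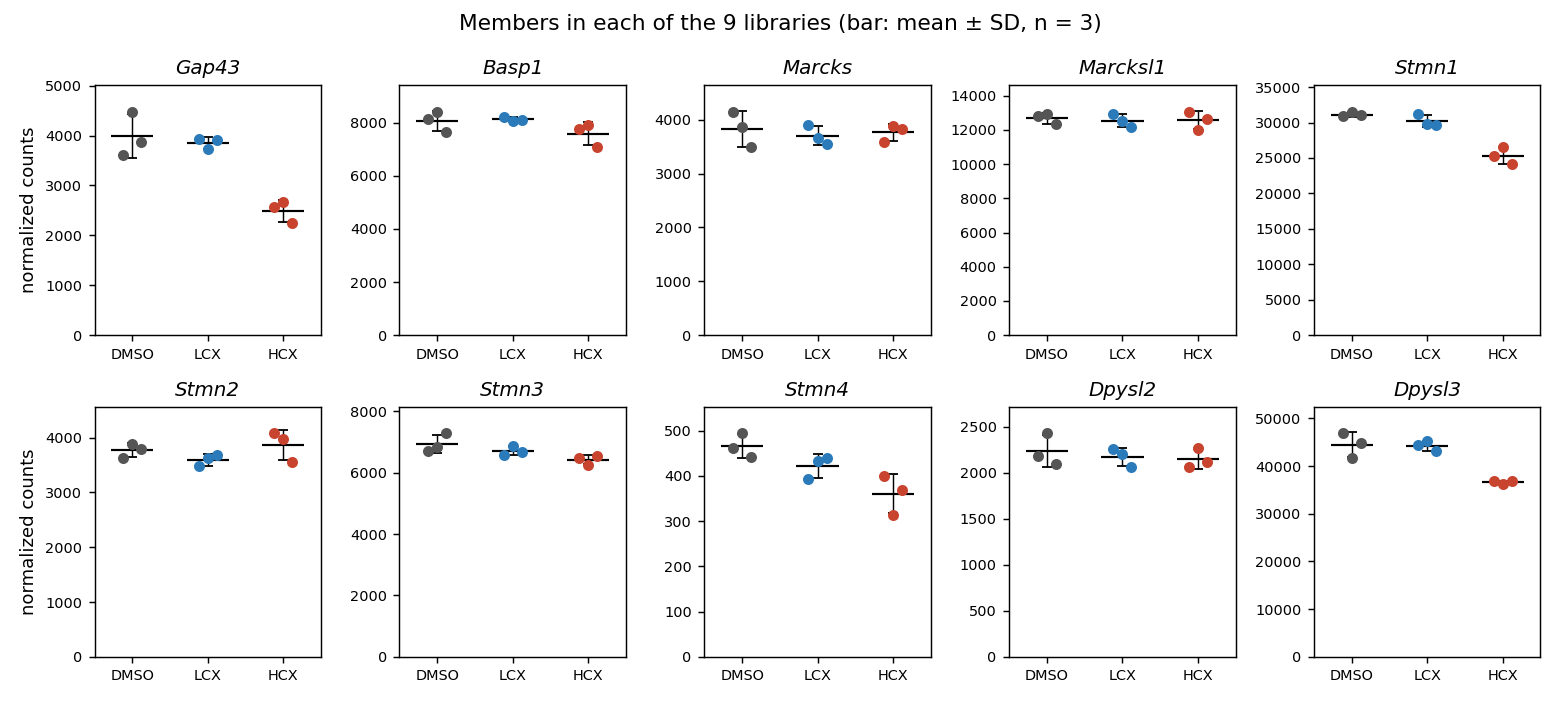
Normalized counts (vertical axes, starting at 0) of the 10 members in the DMSO, LCX and HCX libraries. Points are single libraries and bars the mean ± SD of 3. In the Gap43, Stmn1, Stmn3 and Dpysl3 panels the 3 HCX points lie below the 6 others, and in the Marcks, Marcksl1 and Dpysl2 panels the groups overlap.

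Levels of the members were ordered only per kilobase of exon (the union of annotated exons). In the DMSO libraries Stmn1 was the highest of the members, at 16196 ± 182 normalized counts per kb (SD, n = 3). Marcksl1 followed at 7902 ± 194, Dpysl3 at 6729 ± 398 and Stmn3 at 6112 ± 258 per kb. Basp1 reached 4014 ± 192 and Gap43 2621 ± 289 per kb. The lower end of the order held Marcks at 947 ± 82.2, Stmn2 at 673 ± 23.0, Dpysl2 at 494 ± 37.9 and Stmn4 at 243 ± 13.7 per kb. The cytosolic stathmin was the most abundant member, and the membrane-attached stathmins ran from Stmn3 at a level near that of Dpysl3 down to Stmn4 at the bottom. Neighbours in this order did not overlap between DMSO libraries except Dpysl3 (6301 to 7089) and Stmn3 (5908 to 6403). The order also rests on the annotated length, which was 5602 bases for Stmn2 and 1136 to 1922 for the other stathmins. Which isoforms these cells express was not examined. In the HCX libraries these neighbours changed places, with Stmn3 at 5654 ± 141 and Dpysl3 at 5536 ± 55.8 per kb, and again overlapped. In the LCX libraries they did not overlap, with Dpysl3 at 6698 ± 151 and Stmn3 at 5912 ± 133 per kb.

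**Figure D2:**
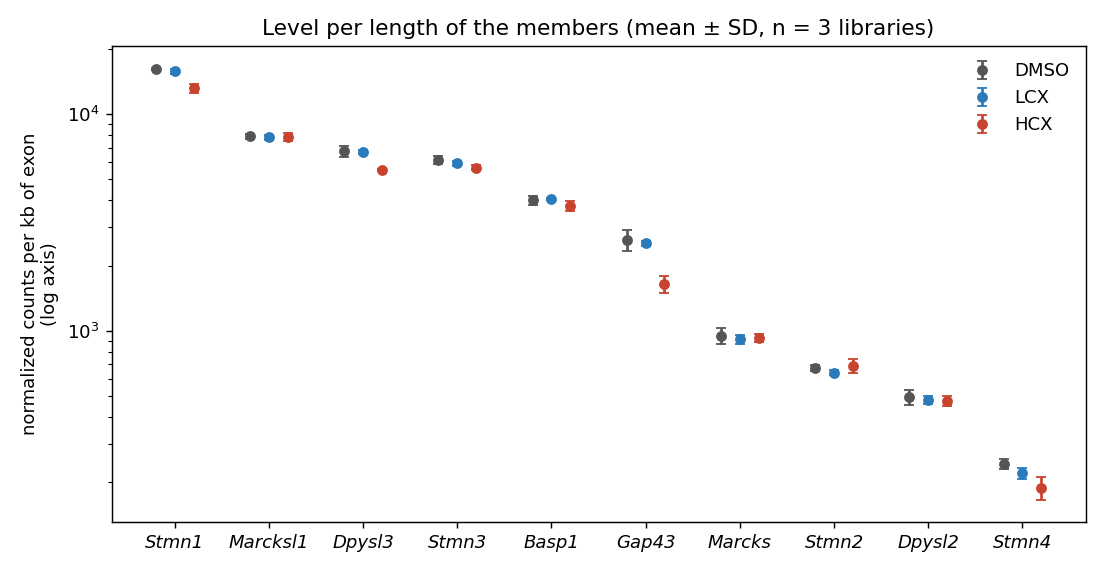
Normalized counts per kb of exon (log axis) of each member, ordered by the DMSO mean, as mean ± SD of 3 libraries per group. Stmn1 stands highest and Stmn4 lowest in each of the 3 groups. The HCX means of Gap43, Basp1, Stmn1, Stmn3, Stmn4, Dpysl2 and Dpysl3 lie below those of both other groups.

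With HCX, Gap43, Stmn1, Stmn4 and Dpysl3 fell relative to DMSO and 0 members rose. By the fitted fold changes Gap43 fell by 37.5%, Stmn4 fell by 22.8%, Stmn1 fell by 18.7% and Dpysl3 fell by 17.6%. Marcks, Marcksl1, Stmn2 and Dpysl2 had fold changes near 0. Each family therefore held called and uncalled members. The test was limma-trend on log2(normalized count + 1) with Benjamini-Hochberg adjustment over 13179 genes, with calls at adjusted p values under 0.05. Of all genes tested, 13.5% were called lower and 5.73% higher, and 4 of the 10 members were called lower. The median log2 fold change of the members was -0.10, beside -0.04 over all genes tested, and 9 of 10 fold changes were negative. The signs of Marcks and Marcksl1 turned positive under scaling by RLE, TMM or library size and with limma-voom, and that of Dpysl2 under library size and limma-voom. At an unadjusted p under 0.05, 0 members were higher and 5 lower, among 4273 of the 13179 genes. limma-voom called 4 members, of which 0 were higher, and called 1301 genes higher and 930 lower in all. The share of lower calls among all called genes depended on the scaling, at 70.2% here, 50.3% with RLE, 50.7% with TMM, 42.5% with library size and 41.7% with limma-voom. The 4 members were called lower under each of these.

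Gap43, the substrate of protein kinase C that marks growing and regenerating axons, had the largest change of the members. It measured 3619, 4478 and 3878 normalized counts in the DMSO libraries, 3922, 3721 and 3918 in the LCX libraries and 2563, 2673 and 2244 in the HCX libraries. The highest HCX library lay below the lowest of the 6 others. Relative to DMSO the log2 fold change was -0.68 (SE 0.07, 95% interval -0.82 to -0.53, limma-trend adjusted p = 1.71e-06), which ranked 46 of 13179 genes by p. Relative to LCX it was -0.63 (limma-trend adjusted p = 4.47e-06).

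Basp1, which shares with GAP-43 the binding of calmodulin and acidic phospholipids, did not pass the test. It measured 8128, 8413 and 7649 in the controls, 8218, 8075 and 8118 under LCX and 7758, 7896 and 7096 under HCX. The HCX libraries overlapped with the DMSO libraries and lay below the LCX libraries. The log2 fold change was -0.09 (95% interval -0.19 to 0.01, limma-trend adjusted p = 0.211) against DMSO and -0.10 (adjusted p = 0.151) against LCX.

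Marcks, the myristoylated substrate of protein kinase C that sequesters phosphoinositides, measured 4150, 3862 and 3486 with DMSO, 3902, 3670 and 3545 with LCX and 3585, 3883 and 3825 with HCX. Its relative Marcksl1 measured 12810, 12912 and 12329 in the controls, 12910, 12531 and 12167 under LCX and 13064, 12004 and 12610 under HCX. In both genes the 3 groups overlapped. The HCX to DMSO log2 fold changes were -0.02 for Marcks (95% interval -0.15 to 0.10) and -0.01 for Marcksl1 (95% interval -0.11 to 0.08), with limma-trend adjusted p of 0.831 and 0.857. These intervals leave room for changes of several percent in either direction.

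Stmn1, the cytosolic stathmin, measured 30855, 31522 and 31008 with DMSO, 31150, 29823 and 29683 with LCX and 25287, 26500 and 24162 with HCX. Its HCX libraries lay below the 6 others without overlap. The log2 fold change was -0.30 against DMSO (SE 0.04, 95% interval -0.39 to -0.21, limma-trend adjusted p = 9.34e-05, rank 195 of 13179) and -0.26 against LCX (limma-trend adjusted p = 0.0005). In normalized counts this was the largest drop among the stathmins, from 31128 ± 350 to 25316 ± 1169 (SD, n = 3).

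Stmn2, the stathmin of growing axons and their tips, measured 3631, 3886 and 3786 in the controls, 3477, 3632 and 3674 under LCX and 4074, 3971 and 3556 under HCX. Here the HCX libraries were not below the others, and the log2 fold change against DMSO was 0.04 (95% interval -0.08 to 0.15, limma-trend adjusted p = 0.696). Against LCX it was 0.10 (adjusted p = 0.197), and without HCX replicate 3 it was 0.16 and called (limma-trend adjusted p = 0.0396). Stmn3, another membrane-attached stathmin of neurons, measured 6712, 6846 and 7273 with DMSO, 6584, 6880 and 6685 with LCX and 6481, 6243 and 6546 with HCX. Its HCX libraries did not overlap with either of the other groups. The log2 fold change nevertheless did not pass, at -0.11 (95% interval -0.20 to -0.02, limma-trend adjusted p = 0.0853) against DMSO and -0.06 (adjusted p = 0.349) against LCX.

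Stmn4, the least abundant stathmin, measured 462, 493 and 441 in the controls, 392, 433 and 440 under LCX and 399, 314 and 368 under HCX. The HCX libraries lay below the DMSO libraries and overlapped with the LCX libraries, which stood between. Its log2 fold change was -0.37 against DMSO (SE 0.11, 95% interval -0.60 to -0.15, limma-trend adjusted p = 0.0175) and -0.23 against LCX (adjusted p = 0.143). The call against DMSO was lost without DMSO replicate 2 (log2 fold change -0.33, limma-trend adjusted p = 0.0559) and without HCX replicate 2 (-0.28, adjusted p = 0.0981).

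Dpysl2, the CRMP known for carrying tubulin in the specification of axons, measured 2182, 2425 and 2094 with DMSO, 2253, 2206 and 2065 with LCX and 2066, 2270 and 2110 with HCX. The groups overlapped, and its log2 fold change against DMSO was -0.05 (95% interval -0.18 to 0.07, limma-trend adjusted p = 0.588). Dpysl3, the more abundant CRMP of the pair, measured 46844, 41639 and 44913 in the controls, 44351, 45213 and 43223 under LCX and 36806, 36156 and 36782 under HCX. Its HCX libraries were close to each other and lay below the 6 others. The log2 fold change was -0.28 against DMSO (SE 0.05, 95% interval -0.38 to -0.18, limma-trend adjusted p = 0.000353, rank 295 of 13179) and -0.27 against LCX (limma-trend adjusted p = 0.000457).

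**Figure D3:**
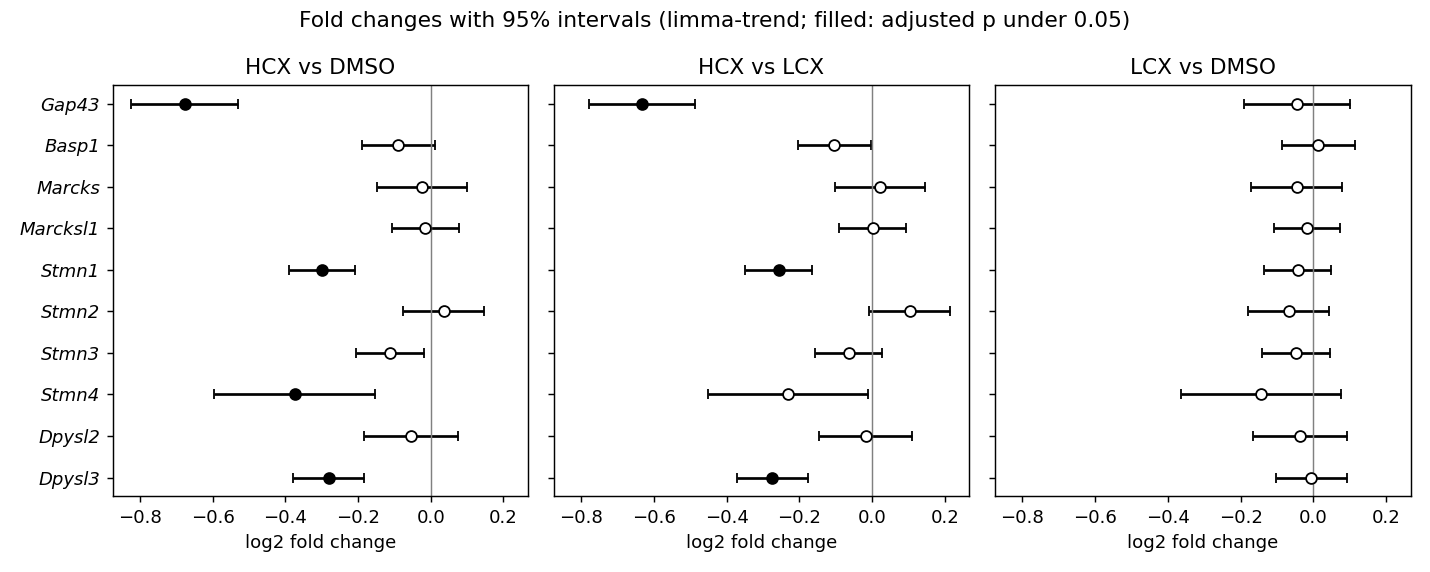
Log2 fold changes of the 10 members (horizontal axes) in the 3 comparisons, with 95% intervals of the limma-trend fit. Filled points had an adjusted p under 0.05, which are Gap43, Stmn1, Stmn4 and Dpysl3 for HCX against DMSO, Gap43, Stmn1 and Dpysl3 for HCX against LCX and 0 for LCX against DMSO.

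Between HCX and LCX, the 2 doses of the xyloside, 3 members fell (Gap43, Stmn1 and Dpysl3) and 0 rose, while 8.95% of all genes were called lower and 8.35% higher by limma-trend. At an unadjusted p under 0.05, 0 members were higher and 5 lower, among 4093 of the 13179 genes with limma-trend. limma-voom called 3 members, of which 0 were higher. At an unadjusted p under 0.05 limma-voom had 1 member higher and 3 lower, among 4137 genes. Both HCX comparisons use the same HCX libraries, so they do not check each other. The groups did not overlap for 5 members in HCX against DMSO (Gap43, Stmn1, Stmn3, Stmn4 and Dpysl3), beside 32.8% of all genes. They did not overlap for 5 members in HCX against LCX (Gap43, Basp1, Stmn1, Stmn3 and Dpysl3), beside 36.5% of all genes. In these 10 cases the HCX libraries were the lower ones. Gap43, Stmn1 and Dpysl3 were called under each of the 19 alternative settings in both comparisons.

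Between LCX and DMSO, limma-trend called 0 members, with 0% of all genes called higher and 0% lower. At an unadjusted p under 0.05 the count was 0 members of 807 genes with limma-trend and 0 members of 426 genes with limma-voom. The 95% interval of the log2 fold change was -0.19 to 0.10 for Gap43, -0.13 to 0.05 for Stmn1 and -0.10 to 0.09 for Dpysl3. The widest belonged to Stmn4, at -0.36 to 0.08 around -0.14, and Stmn4 was the 1 member whose LCX and DMSO libraries did not overlap, beside 12.9% of all genes. The intervals limit the size of a difference and do not show that the levels were equal.

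Ratios between members of 1 library do not depend on the scaling of libraries. The Gap43 to Basp1 ratio was 0.495 ± 0.0447 in DMSO (SD, n = 3), 0.474 ± 0.0113 in LCX and 0.328 ± 0.0113 in HCX. It was lower in 3 of 3 HCX libraries than in the 6 others, by 0.59 on the log2 scale against DMSO and 0.53 against LCX. With 3 libraries against 3, the exact permutation test (two-sided) gave p = 0.1, the smallest it allows, and 0.257 after adjustment over the 18 ratio tests.

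Among the stathmins, the Stmn1 to Stmn2 ratio was 8.27 ± 0.205 in DMSO, 8.42 ± 0.475 in LCX and 6.56 ± 0.311 in HCX. The Stmn1 to Stmn3 ratio was 4.49 ± 0.195, 4.50 ± 0.205 and 3.95 ± 0.279 in the same groups. In both ratios the HCX libraries were the lowest, without overlap (exact permutation p = 0.1 against either group, adjusted 0.257). Stmn1 was therefore lower relative to Stmn2 and to Stmn3 in each HCX library, and no ratio to Stmn4, which also fell against DMSO, was tested. The Stmn2 to Stmn3 ratio overlapped between groups, at 0.543 ± 0.0236, 0.535 ± 0.0124 and 0.603 ± 0.0515. The Marcks to Marcksl1 ratio also overlapped, at 0.302 ± 0.0207, 0.295 ± 0.00592 and 0.300 ± 0.0247. The Dpysl2 to Dpysl3 ratio was 0.0505 ± 0.00672 in DMSO, 0.0491 ± 0.00153 in LCX and 0.0588 ± 0.00354 in HCX. It was higher in the HCX libraries than in the LCX libraries without overlap (exact permutation p = 0.1) and overlapped with DMSO (exact permutation p = 0.3).

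**Figure D4:**
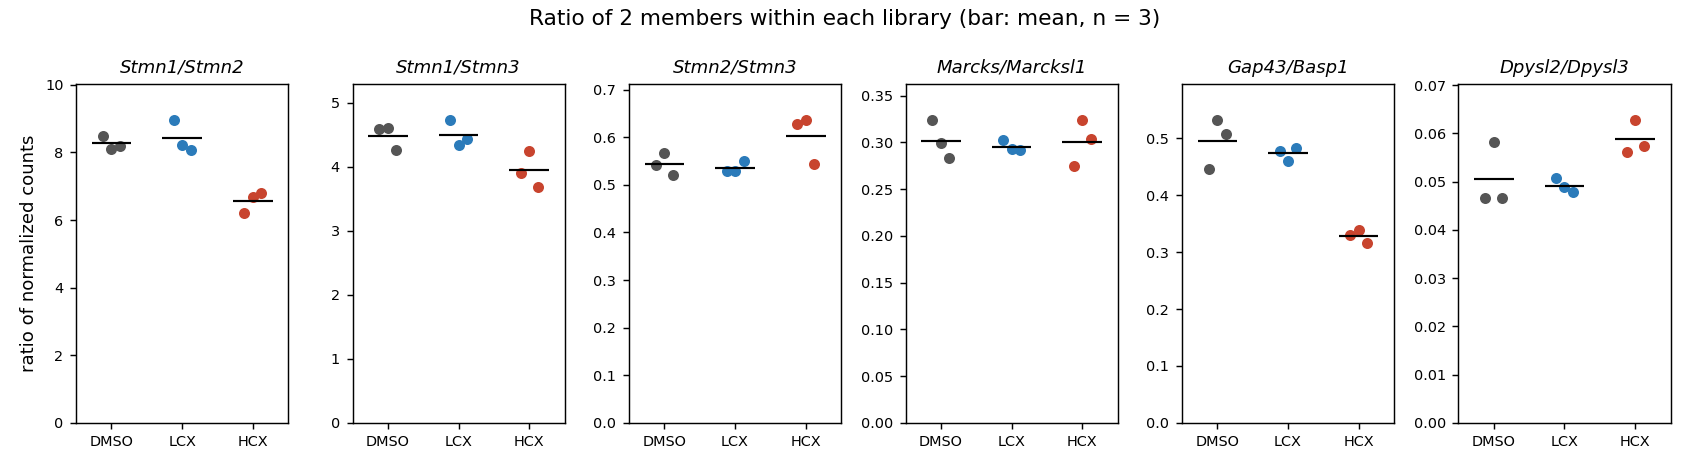
Ratio of the normalized counts of 2 members within each library (vertical axes, starting at 0), with the mean of 3 libraries as a bar. The HCX points of Gap43/Basp1, Stmn1/Stmn2 and Stmn1/Stmn3 lie below the 6 others, and those of Marcks/Marcksl1 overlap with them.

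Across the 9 libraries, as a description, the log2 values of Gap43 and Stmn1 had a Pearson correlation of 0.97, Stmn1 and Dpysl3 0.88 and Gap43 and Dpysl3 0.82. Stmn2 and Dpysl3 gave -0.54. These points share the 3 treatment groups and their scaling. Other genes were ranked by this measure among 10998 with a mean of at least 100, leaving out Gm and Rik names and names stored as dates. Those most like Gap43 were Reep2 (0.994), Slc25a39 (0.992) and Mmp19 (0.986). The genes most like Stmn1 were Nectin4 (0.990), Cth (0.989) and Mfsd1 (0.988).

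Genes around these families were then counted in 7 lists with 74 genes, of which 67 passed the filter. With HCX against DMSO, 9 of the 67 rose and 8 fell, beside 5.73% of all genes called higher and 13.5% lower, and without DMSO replicate 1 the number called was 11 in place of 17. limma-voom called 12 higher and 5 lower. Against LCX, 11 rose and 6 fell, beside 8.35% and 8.95% of all genes. For LCX against DMSO limma-trend called 0, with 5 at an unadjusted p under 0.05, and limma-voom called 0, with 3.

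Other proteins of the growth cone moved both ways, with 3 of 14 tested called higher and 2 lower against DMSO. Against LCX, 4 were called higher and 2 lower. Of all genes, 5.73% were called higher and 13.5% lower against DMSO, and 8.35% and 8.95% against LCX. Gprin1, which is a target of activated G proteins in neurites, rose from 2731 ± 117 to 3370 ± 127 normalized counts (log2 fold change 0.30, limma-trend adjusted p = 0.000366). Dbn1 (drebrin), which links actin filaments to microtubule tips, rose from 6212 ± 62.9 to 7253 ± 166 (0.22, adjusted p = 0.00087). Dclk1, a microtubule-binding kinase of the doublecortin family, rose from 1515 ± 86.5 to 1887 ± 101 (0.32, adjusted p = 0.00247). These rose while Gap43, Stmn1 and Dpysl3 fell in the same libraries. The 2 that fell, named after their values were seen, were Cap1, which recycles actin monomers (-0.23, adjusted p = 0.00306), and Clasp1, which stabilises microtubule ends (-0.15, adjusted p = 0.0268). The Clasp1 call was lost with RLE, TMM and library size scaling and limma-voom, and without DMSO replicate 1, DMSO replicate 2, HCX replicate 1 or HCX replicate 3, and with only the 6 libraries compared. Cap2, Rtn1, Ctnnd2 and Dcx did not pass the filter.

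**Figure D5:**
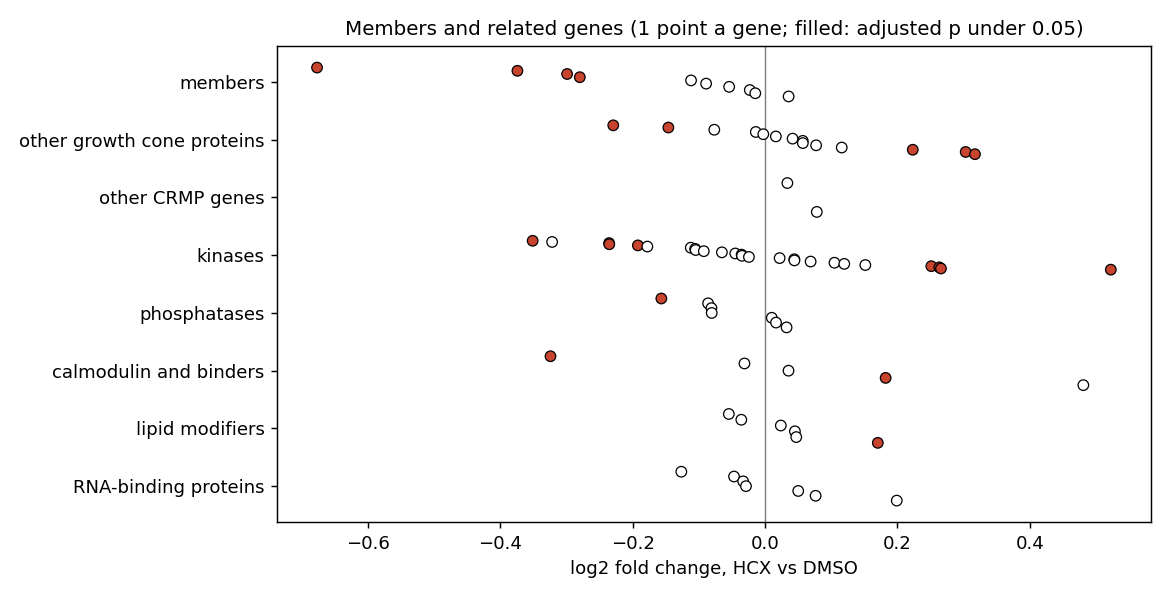
Log2 fold changes between HCX and DMSO (horizontal axis) of the 10 members and of 67 related genes in 7 lists, 1 point per gene, filled where the adjusted p was under 0.05. The 4 filled members lie left of 0, and the filled points of the kinases and of the other growth cone proteins lie on both sides.

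The other CRMP genes were not called. Crmp1, a partner of DPYSL2 in mixed tetramers, measured 9690 ± 644 in DMSO and 9904 ± 101 in HCX (log2 fold change 0.03, 95% interval -0.06 to 0.13), and Dpysl5 measured 1034 ± 63.6 and 1090 ± 34.8 (0.08, 95% interval -0.07 to 0.22). Dpysl4 and Dpys did not pass the filter. Of these 2 tested genes, 0 had an unadjusted p under 0.05 with limma-trend or limma-voom against either group. Dpysl3 was thus the 1 called gene of the 4 CRMP genes tested.

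Among 26 kinases and kinase activators with substrates in these families, HCX libraries had 4 called higher and 4 lower against DMSO. Against LCX, 6 were called higher and 4 lower. Over all genes the shares were 5.73% higher and 13.5% lower against DMSO, and 8.35% and 8.95% against LCX. Both activators of CDK5 rose. Cdk5r2 (p39) went from 1989 ± 132 to 2384 ± 28.7 (log2 fold change 0.26, limma-trend adjusted p = 0.00723). Cdk5r1 (p35) went from 220 ± 33.8 to 316 ± 52.4 (0.52, adjusted p = 0.0162), a call lost without DMSO replicate 2, HCX replicate 1 or HCX replicate 3 (adjusted p = 0.0733, 0.0629 and 0.0747). Prkcd, a protein kinase C isoform, fell from 3275 ± 171 to 2782 ± 161 (-0.24, adjusted p = 0.00442), and Prkacb, a catalytic subunit of protein kinase A, from 3756 ± 152 to 3191 ± 148 (-0.24, adjusted p = 0.0026). The other called kinases, named after their values were seen with Cdk5r1, were Prkca at 0.27, Camk2g at 0.25, Mapk10 at -0.35 and Gsk3b at -0.19. The call of Prkca was lost without DMSO replicate 1 or HCX replicate 3, that of Camk2g without DMSO replicate 1, DMSO replicate 3 or HCX replicate 2, and that of Gsk3b without DMSO replicate 1 or HCX replicate 1 and under library size scaling and limma-voom. Isoforms of protein kinase C were thus called in both directions.

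Over all genes, 5.73% were called higher and 13.5% lower against DMSO, and 8.35% and 8.95% against LCX. Of 7 catalytic subunits of phosphatases, 0 were higher and 1 lower against DMSO, and 0 were called against LCX. The 1 lower was Ppp3cb of calcineurin (log2 fold change -0.16, limma-trend adjusted p = 0.0365). Its call was lost under RLE, TMM and library size scaling, limma-voom, a replicate block and only the 6 libraries compared. The call was also lost without replicate 1 of any group, replicate 2 of LCX or HCX, or DMSO replicate 3. Of 5 genes of calmodulin and its binders, 1 was called higher and 1 lower against DMSO, and 1 higher and 0 lower against LCX. Calm3, 1 of the calmodulin genes, rose from 14288 ± 471 to 16208 ± 314 (0.18, adjusted p = 0.00459). Pcp4, a small calmodulin-binding protein, fell from 1555 ± 58.7 to 1254 ± 224 (-0.32, adjusted p = 0.0133), a call lost without HCX replicate 2 or HCX replicate 3 (adjusted p = 0.0701 and 0.0635). Of 6 lipid-modifying enzymes, 1 was called higher and 0 lower against DMSO, and 0 were called against LCX. The 1 higher was Zdhhc7, a Golgi palmitoyltransferase (0.17, adjusted p = 0.0339). This call was lost without DMSO replicate 1, DMSO replicate 3 or any 1 of the 3 HCX replicates, and with only the 6 libraries compared. Of 7 RNA-binding proteins tested, limma-trend and limma-voom called 0 against either group, with 1 and 3 at an unadjusted p under 0.05 against DMSO. The 2 of highest mean normalized count, not divided by length, were Tardbp, which acts on STMN2 splicing in human neurons, and Elavl1 (HuR), which binds AU-rich messages. Both gave -0.03 on the log2 scale.

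The cell line was checked against marker genes. The 11 markers of sympathetic neuroblasts examined passed the filter. Their normalized counts summed to 77353 to 79225 in the DMSO libraries, to 75892 to 79052 with LCX and to 87523 to 90372 with HCX, and 4 of them (Phox2a, Hand2, Chga and Chgb, named after their values were seen) rose with HCX. Glial markers summed to between 1130 and 1317 in the 9 libraries, and the defining S100b had a mean under 10 in each group, as did Aldh1l1. Mesenchymal markers summed to 1153 to 1353 in DMSO, 1255 to 1379 in LCX and 919 to 1042 in HCX, with Col1a2 and Lum near 0. Immune and endothelial markers summed to 255 to 269, 271 to 285 and 163 to 226, with Kdr listed at 0 and Ptprc and Aif1 near 0. With HCX against DMSO, 1 of 5 mesenchymal markers tested (Dcn) and 1 of 3 immune and endothelial ones (Pecam1) fell, as did Gap43, Stmn1, Stmn4 and Dpysl3, and 0 of 4 glial markers were called. Their part in the changes of the members was not tested, and in RNA of whole cultures fewer cells of a type and less RNA per cell cannot be told apart.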

How the data were processed

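RNA of 9 Neuro2a samples, 3 each of DMSO, LCX and HCX, was sequenced from TruSeq stranded mRNA libraries. The submitters' processing notes name the mm10 build and the tools TopHat2, Bowtie and Partek, with versions and gene annotation not given in the sources used here. The authors deposited normalized counts per gene, a linear signal in which the reads of a gene are divided by a library factor and by a further factor near 1 that differs between genes. Whole reads could therefore not be recovered, and no count model was fitted. The table has 0 further columns of per-sample values.

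Values were taken as log2(value + 1), which understates changes of low genes. A gene was kept if 3 or more libraries reached 10 (13179 of 24972 names). limma-trend was fitted with 1 term per group over the 9 libraries (6 residual and 13.8 prior degrees of freedom), with Benjamini-Hochberg adjustment over all genes within a comparison and a threshold of 0.05. Ratios of 6 pairs of members were compared by two-sided exact permutation tests, adjusted over 18. Levels per kb used GENCODE vM21 exons, and promoters came from RefSeq (GRCm38.p6). The procedure was also run on simulated whole counts with known changes, unlike the deposited values, and the outcome is not reported here. The fits ran in limma 3.58.1 (R 4.3.3), and sequences and plots in Python 3.11.15 with matplotlib 3.10.9 and numpy 2.4.6.

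As alternatives, the libraries were rescaled (RLE, the median ratio to a mean library; TMM, a trimmed mean of ratios; or library size), with pseudocounts of 0.5 and 10, no filter, a filter of 10 in every library, only the 6 libraries compared, limma-voom (weights by precision), a replicate block, and each library left out in turn. Besides the members, the text names per related list up to 3 called genes of smallest adjusted p or, with none called, the 2 of highest mean. It also names 3 genes most like each of the 2 members of smallest p, leaving out Gm, Rik and date names. Members and lists were chosen with earlier results of these data known. Some marker genes are not reported here.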

Additional observations from a re-analysis of the deposited data

How the results depend on the processing

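Across 19 alternatives Gap43, Stmn1 and Dpysl3 stayed called in both HCX comparisons, with log2 fold changes against DMSO of -0.74 to -0.59, -0.33 to -0.24 and -0.33 to -0.22, and Stmn4 stayed called against DMSO in 17. Of the 570 member fold changes so recomputed, 43 changed sign, each with the member uncalled in both, 2 lost a call (Stmn4) and 1 gained a call (Stmn2 against LCX). By RLE the scale of the DMSO libraries was 2.93% higher than that of LCX and HCX, so rescaling raised fold changes against DMSO. Precision is limited by 3 libraries a group, and an exact p of 0.1 is the smallest that the ratio tests allow.

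Sign changes under RLE, TMM, library size and limma-voom, in this order, were as follows. Against DMSO with HCX, Marcks gave 0.019, 0.018, 0.034 and 0.034, Marcksl1 0.027, 0.026, 0.043 and 0.043, Tardbp 0.013, 0.012, 0.029 and 0.029 and Elavl1 0.00848, 0.00765, 0.024 and 0.024. For LCX against DMSO, Marcksl1 gave 0.025, 0.021, 0.022 and 0.022, Dpysl2 0.00490, 0.00149, 0.00257 and 0.00260 and Dpysl3 0.037, 0.033, 0.034 and 0.034. Under library size and limma-voom alone, Dpysl2 gave 0.00321 and 0.00323 for HCX against DMSO and 0.000638 and 0.000632 against LCX. In counts over all genes, 755 higher and 1781 lower against DMSO became 1116 and 1129 with RLE, 1108 and 1139 with TMM, 1307 and 966 with library size and 1301 and 930 with limma-voom.

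Leaving out 1 library at a time gave the following ranges where a sign changed. With HCX against DMSO they were -0.090 to 0.036 for Marcks, -0.044 to 0.017 for Marcksl1, -0.00333 to 0.095 for Stmn2, -0.10 to 0.00637 for Dpysl2, -0.020 to 0.075 for Crmp1 and -0.064 to 0.00570 for Tardbp. With HCX against LCX they were -0.00855 to 0.061 for Marcks, -0.027 to 0.034 for Marcksl1 and -0.058 to 0.010 for Dpysl2. With LCX against DMSO they were -0.11 to 0.040 for Gap43, -0.023 to 0.045 for Basp1, -0.11 to 0.013 for Marcks, -0.038 to 0.00433 for Marcksl1, -0.082 to 0.024 for Dpysl2 and -0.052 to 0.033 for Dpysl3. Log2 ratios ranged, for LCX against DMSO, over -0.021 to 0.054 (Stmn1 to Stmn2), -0.032 to 0.031 (Stmn1 to Stmn3), -0.051 to 0.012 (Stmn2 to Stmn3), -0.075 to 0.023 (Marcks to Marcksl1) and -0.086 to 0.075 (Dpysl2 to Dpysl3). The Marcks to Marcksl1 ratio also ranged over -0.063 to 0.055 for HCX against DMSO and -0.034 to 0.084 against LCX. Members called higher between HCX and LCX numbered 0 to 1, and related genes called between HCX and DMSO 11 to 18. Without LCX replicate 1, 2 or 3, the 1101 higher and 1179 lower genes of HCX against LCX became 663 and 769, 722 and 792, or 645 and 729, with fewer samples in the fit. Without HCX replicate 3 they became 757 and 944.

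Deviations of same-numbered libraries correlated between -0.104 and 0.104, with 1 of 9 above 0.1. Between DMSO and HCX the same-numbered libraries gave 0.067, 0.104 and 0.086, and those of different numbers -0.071 to -0.017. In the pairs with LCX not every library correlated best with its own number, so the numbers were not taken to pair samples. A replicate block kept 4 and 3 members called lower in the HCX comparisons and gave 720 higher and 1711 lower genes for HCX against DMSO, where 755 and 1781 were called without it. For LCX against DMSO it called 2 higher and 1 lower of all genes, the most of any alternative, and 0 members.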
